A study of Saccharomyces cerevisiae with 8 samples.

Results

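The genes examined here encode Hsp90, the cytosolic chaperone of late folding steps, and proteins that work with it in yeast. They were chosen by name as 10 open reading frames (ORFs) of the 6152 on the array: the Hsp90 genes *HSP82* (YPL240C) and *HSC82* (YMR186W), and the co-chaperone genes *STI1* (YOR027W), *AHA1* (YDR214W), *CPR6* (YLR216C), *SBA1* (YKL117W), *CDC37* (YDR168W), *HCH1* (YNL281W), *CNS1* (YBR155W) and *CPR7* (YJR032W). No filter on low values was applied, and all 10 had a value in every condition, except *CPR7*, which had none in Temohaya-MI26 at the late stage without ethanol.

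The study compared *Saccharomyces cerevisiae* strains of unlike tolerance, CECT10094, a tolerant strain from flor wine that the sample labels call PE35M, and Temohaya-MI26, a more sensitive strain from agave fermentation. Each grew from 1 colony in rich glucose medium (GPY) with 0 or 10% (v/v) ethanol, and the comparison asks which transcripts go with ethanol stress in each strain. Early sampling was at 1 h. Late sampling of the cultures without ethanol was at 10 h, and that of the ethanol cultures at 28 h for CECT10094 and at 40 h for Temohaya-MI26, which means that ethanol and culture time cannot be told apart late. The labels place the late samples in exponential phase, whereas the study's design places them after it. No gene was deleted or added in either strain.

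Hsp90 is a dimer that opens and closes as it binds and hydrolyses ATP, and it takes over partly folded proteins such as kinases and transcription factors from Hsp70. Co-chaperones act at separate steps: Sti1 bridges Hsp70 and Hsp90, Cdc37 brings kinases, Aha1 and Hch1 stimulate ATP hydrolysis, Sba1 (p23) holds the closed dimer, and the cyclophilins Cpr6 and Cpr7 and the essential protein Cns1 dock at the end of Hsp90. In yeast *HSC82* is the constitutive gene and *HSP82* the gene more strongly induced by heat, and both are targets of the heat shock factor Hsf1.

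Each condition is 1 column of log2 ratios of the Cy5 signal of the sample to the Cy3 signal of a pool of RNA from all samples, the authors' median of 3 slides. A ratio of 0 therefore means the level in the pool, ratios of different genes do not rank their abundance, and a level is a share of the labelled RNA, so a change in RNA per cell is not seen. The 8 columns held 5612 to 6115 ORFs with medians from -0.22 to 0.32, and no depth or error comes with a value. Correlations between columns across ORFs went down to -0.356, between CECT10094 early without ethanol and Temohaya-MI26 early with it. All columns are ratios to the pool of these same samples, and the dyes ran the same way on every slide. *HSP82* and *HSC82* are nearly identical in sequence, and spotted products may not separate their transcripts.

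Differences are given as the ratio at 10% minus the ratio at 0% ethanol within a strain and stage. Such a difference has no replicate, and it is said to pass a limit when it lies outside the central 95% of a normal curve with the mean and standard deviation of all ORFs, a position and not a test. The change common to both strains was tested in limma over all ORFs, with p adjusted by the method of Benjamini and Hochberg. The spread in that test is the disagreement between the strains, not that between cultures, so its p-values speak for these 2 strains only. For each gene it is pooled over both stages and drawn largely from all ORFs (9.17 prior against 2 residual degrees of freedom). A standard error given below is therefore not the gene's own agreement between the strains at that stage. Where a strain is left out below, a stage keeps 1 column per ethanol level, and the change is the single difference of the other strain. The spread is then borrowed from all ORFs at the other stage, on the assumption that the lone strain varies alike. It is the same for every ORF (SD 0.424 for early changes and 0.414 for late ones). Such a p follows the size of 1 difference and is no replicate check.

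After 1 h, ethanol went with higher transcripts of both Hsp90 genes and of *STI1*, *AHA1* and *CPR6*, and with a lower *CPR7*. In limma 5 of the 10 genes were higher (adjusted p under 0.05), where 10.5% of all ORFs tested were, and 1 was lower, where 6.94% were. A count of 1 lower in 10 genes is near that share. The median change of the 10 genes was 1.20 on the log2 scale, against 0.17 for all ORFs. In the single strains, 0 of 10 genes passed the upper limit in CECT10094 (2.18% of all ORFs did), which stood at 2.29, and 1 of 10, *SBA1*, passed the limit of 2.07 in Temohaya-MI26 (2.74%). None passed the lower limit, which 3.53% of ORFs passed in CECT10094 and 3.08% in Temohaya-MI26. For the 5 genes called higher, 75.6% (*STI1*) to 91.2% (*HSC82*) of ORFs had a smaller difference in CECT10094. In Temohaya-MI26 these shares were 92.7% (*STI1*) to 97.1% (*HSP82*). With a strain left out, the changes of these 5 genes kept their direction and ran from 0.93 to 1.52 in CECT10094 alone and from 1.40 to 2.05 in Temohaya-MI26 alone. The borrowed spread gave adjusted p between 0.0894 and 0.376 for the former, and 0.0699 for *HSC82* and 0.118 for *STI1* for the latter, above the threshold.

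At the late stage both Hsp90 genes and *AHA1* were higher in ethanol, and *CDC37* was lower. In limma 3 of the 10 genes were higher, *HSC82*, *HSP82* and *AHA1*, where 0.815% of all ORFs were, and 1 was lower, *CDC37*, where 7.01% were. Here too a count of 1 lower is near the share of all ORFs. The median change of the 10 genes was 1.13, against -0.36 for all ORFs. The upper limit was passed by 5 of 10 genes in CECT10094 (2.76% of ORFs), namely *HSC82*, *HSP82*, *SBA1*, *AHA1* and *CPR7*, and by 3 of 9 in Temohaya-MI26 (3.04%), namely *HSC82*, *HSP82* and *AHA1*. These limits were 1.23 and 1.25. No gene passed the lower limit in either strain, where 2.85% and 2.51% of ORFs did.

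**Figure D1:**
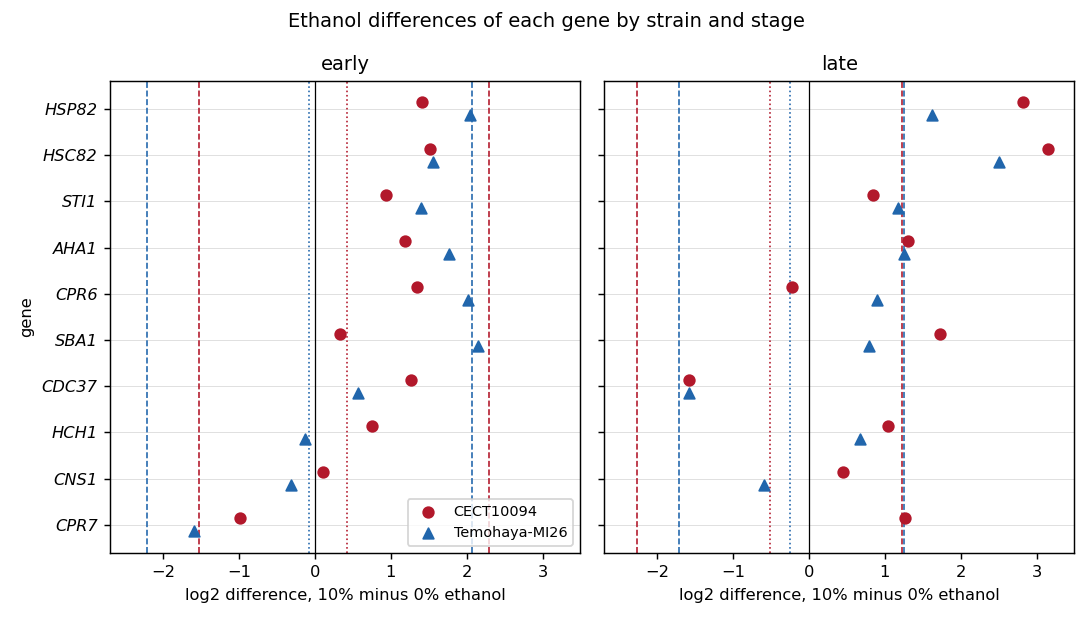
Log2 difference between 10 and 0% ethanol (x axis) for each of the 10 genes (y axis), early on the left and late on the right. Red circles are CECT10094, blue triangles Temohaya-MI26, dashed lines the 95% limits and dotted lines the median of all ORFs of that strain. Late, *HSC82* and *HSP82* stand at 3.15 and 2.83 in CECT10094 and *CDC37* stands at -1.58 in both strains.

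*HSP82* was below the pool in all 4 conditions without ethanol. Early, its ratios at 0% were -1.05 in CECT10094 and -1.97 in Temohaya-MI26, and at 10% they were 0.35 and 0.08. Late, they were -2.74 and -2.78 at 0%, against 0.08 and -1.16 at 10%. Both columns with ethanol lay above both columns without it at each stage, and the late columns without ethanol were the lowest. The common change was 1.73 ± 0.40 early (standard error, 2 strains, limma adjusted p = 0.0133), a 3.31-fold rise, and 2.22 ± 0.40 late (adjusted p = 0.0161), a 4.66-fold rise. Against the median change of all ORFs these were 1.56 and 2.58. Late, CECT10094 alone gave 2.83 (adjusted p = 0.000185) and Temohaya-MI26 alone 1.62 (adjusted p = 0.134), with the borrowed spread.

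*HSC82* was likewise lowest late without ethanol. Its ratios early were -0.79 and -1.14 at 0% and 0.73 and 0.42 at 10% (CECT10094 and Temohaya-MI26 here and below). Late they were -3.02 and -2.90 at 0% and 0.13 and -0.40 at 10%. The strains were within 0.35 of each other at 0% early and within 0.11 at 0% late, and the strains' largest gap, 0.53 late at 10%, was well below the difference between ethanol levels. The common change was 1.54 ± 0.36 early (adjusted p = 0.0133), or 2.91-fold, and 2.83 ± 0.36 late (adjusted p = 0.0046), or 7.09-fold, and the late change was 3.15 in CECT10094 alone and 2.50 in Temohaya-MI26 alone (adjusted p = 2.34e-05 and 0.00241, borrowed spread). In CECT10094 late, *HSC82* had the largest difference of 6008 ORFs and *HSP82* ranked 2, while in Temohaya-MI26 late they ranked 14 and 73 of 5498.

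**Figure D2:**
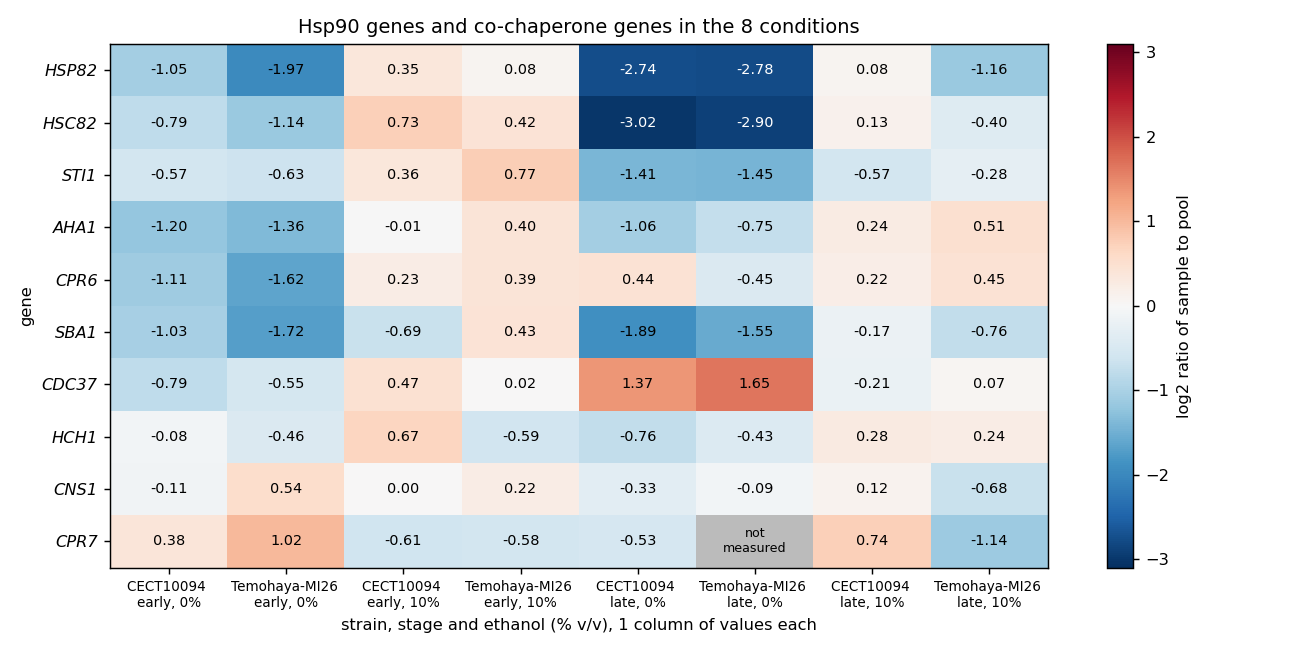
Log2 ratio of sample to pool for the 10 genes (rows) in the 8 conditions (columns, named by strain, stage and percent ethanol), with blue below and red above the pool and grey for the value that was not measured. *HSP82* and *HSC82* are lowest in the late columns without ethanol, between -2.74 and -3.02, where *CDC37* is highest, at 1.37 and 1.65.

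The adaptors that bring clients to Hsp90 went different ways. *STI1*, the bridge from Hsp70, had early ratios of -0.57 and -0.63 at 0% and 0.36 and 0.77 at 10%, and late ratios of -1.41 and -1.45 at 0% and -0.57 and -0.28 at 10%. Ethanol columns were above the others at both stages, with strains that differed by at most 0.41. The change passed early (1.17 ± 0.35, adjusted p = 0.0429), but with columns centred on their medians it was 1.02 with an adjusted p of 0.0527. The late change was 1.01 ± 0.35 (adjusted p = 0.103), and 1.34 after centring (adjusted p = 0.0458).

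*CDC37*, the kinase-specific adaptor, had its highest ratios where the Hsp90 genes had their lowest. Early, the ratios were -0.79 and -0.55 at 0% and 0.47 and 0.02 at 10%. Late, they were 1.37 and 1.65 at 0% and -0.21 and 0.07 at 10%, so both strains were lower in ethanol. The early change of 0.92 ± 0.36 did not pass (adjusted p = 0.102), and the late change was -1.58 ± 0.36 (adjusted p = 0.0262), a 2.99-fold fall. Measured against the median of all ORFs the late change was -1.22. It was lost under quantile normalization (-0.90, adjusted p = 0.235). The difference was -1.58 in each strain, with an adjusted p of 0.145 without CECT10094 and 0.0586 without Temohaya-MI26 on the borrowed spread.

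Among the regulators of the ATPase, *AHA1*, the activator, was higher in ethanol in both strains at both stages. Its ratios at 0% were -1.20 and -1.36 early and -1.06 and -0.75 late. At 10% they were -0.01 and 0.40 early and 0.24 and 0.51 late. No ethanol column fell as low as any column without ethanol, and the differences in the strains were 1.19 and 1.76 early and 1.31 and 1.26 late. Against the median of all ORFs these differences were 0.77 and 1.84 early and 1.82 and 1.50 late. The common change was 1.48 ± 0.35 early (adjusted p = 0.0156) and 1.28 ± 0.35 late (adjusted p = 0.0498). The late p lay at the threshold and was 0.327 without CECT10094 and 0.134 without Temohaya-MI26 (borrowed spread), and 0.0806 under quantile normalization, under which the early p was 0.0534.

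*SBA1*, the p23 gene, was not called at either stage in the fit to all columns. Its ratios early were -1.03 and -1.72 at 0% and -0.69 and 0.43 at 10%, and late they were -1.89 and -1.55 at 0% and -0.17 and -0.76 at 10%. The ethanol difference was larger in Temohaya-MI26 early (2.15 against 0.33) and larger in CECT10094 late (1.72 against 0.80). The common change was 1.24 ± 0.46 early (adjusted p = 0.0868) and 1.26 ± 0.46 late (adjusted p = 0.113). Fits in limma to the 4 columns of a stage alone called it at both stages (adjusted p = 0.0164 early and 0.0278 late). Those fits gave every ORF the same spread, drawn from all ORFs (SD 0.414 early and 0.424 late). The disagreement between the strains for *SBA1* itself did not enter them, so they add no check on it.

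*HCH1*, a relative of *AHA1* that also stimulates the ATPase, did not pass at either stage. Its early ratios were -0.08 and -0.46 at 0% and 0.67 and -0.59 at 10%, so that the differences had opposite signs, 0.75 and -0.13. Late the ratios were -0.76 and -0.43 at 0% and 0.28 and 0.24 at 10%. Both strains were then higher in ethanol, by 1.04 and 0.67, and the common change of 0.86 ± 0.37 had an adjusted p of 0.17.

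The Hsp90-bound cyclophilins moved in opposite directions early. *CPR6* had ratios of -1.11 and -1.62 at 0% and 0.23 and 0.39 at 10%, a common change of 1.68 ± 0.39 (adjusted p = 0.0143), or 3.20-fold. Late its ratios were 0.44 and -0.45 at 0% and 0.22 and 0.45 at 10%, the groups overlapped, and the change was 0.34 ± 0.39 (adjusted p = 0.621). Over the 4 ethanol columns *CPR6* kept between 0.22 and 0.45, whereas over the 4 columns without ethanol it ranged by 2.07.

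*CPR7* had early ratios of 0.38 and 1.02 at 0% and -0.61 and -0.58 at 10%. It was lower in ethanol in both strains, by a common change of -1.29 ± 0.37 (adjusted p = 0.0381), a 2.45-fold fall. Late, CECT10094 had -0.53 at 0% and 0.74 at 10%, and Temohaya-MI26 had only the 10% value, -1.14. The late change of 1.26 ± 0.52 thus comes from CECT10094 alone, and its adjusted p was 0.158. Because of the missing value the early call could not be tested with a strain left out.

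*CNS1*, whose product binds both Hsp70 and Hsp90, was called at neither stage. Its ratios were -0.11 and 0.54 at 0% and 0.00 and 0.22 at 10% early, and -0.33 and -0.09 at 0% and 0.12 and -0.68 at 10% late. The common change was -0.10 ± 0.38 early (adjusted p = 0.898, 95% interval -0.94 to 0.73) and -0.07 ± 0.38 late (adjusted p = 0.923, interval -0.91 to 0.76). *CNS1* lies among the 616 ORFs of chromosomes I, III and the right arm of II, whose median stood 0.46 and 0.69 above that of the whole column late at 0%, against 0.13 and 0.20 late at 10%. With these ORFs centred separately its late change was 0.67 (adjusted p = 0.267).

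The stages were then compared at a fixed ethanol level, with the same columns as above. Without ethanol, both Hsp90 genes were lower late than early, while *CDC37* and *CPR6* were higher. In limma 2 of 10 genes were higher, where 23.7% of all ORFs were, and 3 were lower, where 4.96% were, and the median of all ORFs itself rose by 0.51. The count of 2 higher is near the share of all ORFs. *HSC82* fell by 2.22 in CECT10094 and by 1.76 in Temohaya-MI26 (common change -1.99 ± 0.36, adjusted p = 0.00355), which placed it 17th from the bottom of 5980 ORFs in CECT10094 and 170th of 5568 in Temohaya-MI26. *HSP82* fell by 1.69 and 0.81 (common change -1.25 ± 0.40, adjusted p = 0.0377). These 10 h samples hold the low levels against which the late ethanol differences were taken.

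*CDC37* was higher late by 2.17 and 2.20 in the strains (common change 2.18 ± 0.36, adjusted p = 0.00235), and after centring the columns by 1.75 (adjusted p = 0.00408). *CPR6* was higher by 1.55 and 1.18 (1.37 ± 0.39, adjusted p = 0.0255), but by 0.93 after centring (adjusted p = 0.0946). *STI1* fell by 0.84 and 0.81 (-0.83 ± 0.35, adjusted p = 0.10), and after centring its change of -1.26 passed (adjusted p = 0.0224). For *CPR7* the measured difference was -0.91 in CECT10094. The common change of -2.16 ± 0.52 (adjusted p = 0.014) adds a late level for Temohaya-MI26 that the fit fills in from the gap between strains at 10%, so it is no measurement of that strain.

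In ethanol none of the 10 genes was called between early and late in limma. As only 1.86% of all ORFs were higher and 0.722% lower late, a count of 0 is near those shares. Of the 10 genes 1 had an unadjusted p under 0.05. That was *STI1*, at -0.99 ± 0.35 (adjusted p = 0.226). *HSP82* and *HSC82* were -0.76 ± 0.40 and -0.71 ± 0.36 (adjusted p = 0.458 and 0.43), with 95% intervals from -1.63 to 0.12 and from -1.49 to 0.07. These intervals do not show steady levels in ethanol. Whether the fall at 0% differed from that at 10% is the comparison of ethanol changes given below, which passed for neither gene in the main fit (adjusted p = 0.557 and 0.0939). *CPR6* stood at 0.02 ± 0.39 (interval -0.84 to 0.89) and *CDC37* at -0.32 ± 0.36 (interval -1.10 to 0.47). Of the 10 genes 5 had a wider range over the columns without ethanol than over those with it, which is 50% against 58% of the ORFs with all values.

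**Figure D3:**
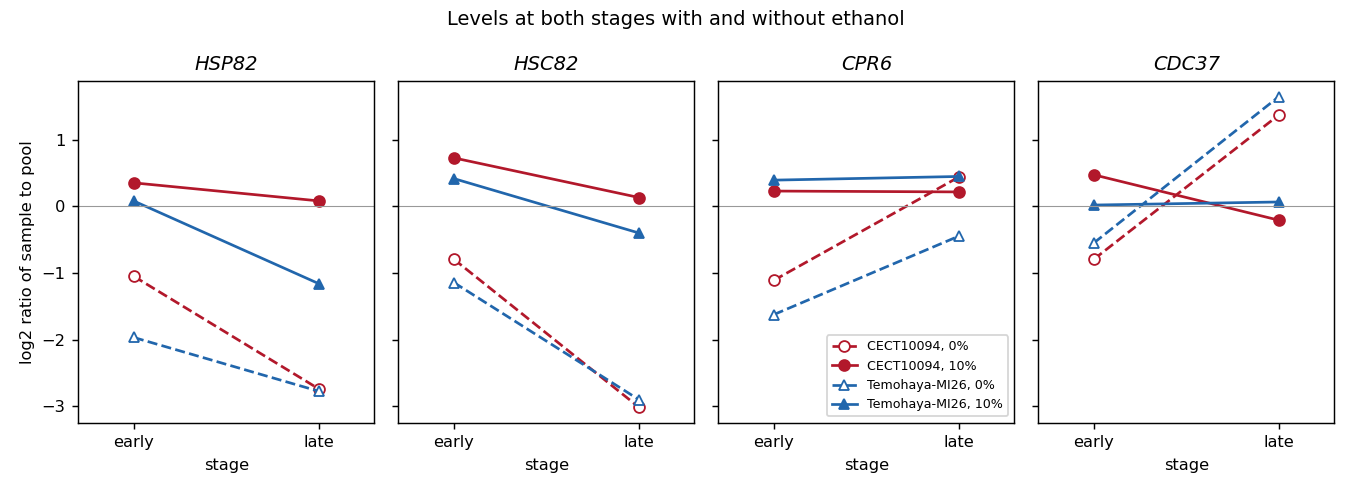
Log2 ratio of sample to pool (y axis) early and late (x axis) for 4 genes, with open symbols and dashed lines at 0% and filled symbols and solid lines at 10% ethanol, red for CECT10094 and blue for Temohaya-MI26. Between stages the lines at 0% fall for *HSP82* and *HSC82* and rise for *CPR6* and *CDC37*, and the lines at 10% move less except for *HSP82* in Temohaya-MI26, which falls by 1.24.

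The ethanol change itself was compared between stages in the same fit. The change of 1 gene, *CPR7*, was higher late, where that of 4.38% of all ORFs was, and that of 1 gene, *CDC37*, was lower, where 14.6% were, with a median of -0.58 for all ORFs. For *CDC37* late minus early was -2.50 ± 0.51 (adjusted p = 0.00827), from 0.92 to -1.58. For *CPR7* it was 2.56 ± 0.64 (adjusted p = 0.023), from -1.29 to 1.26, with the late value from CECT10094 alone. For *HSC82* it was 1.29 ± 0.50 (adjusted p = 0.0939), and 1.75 with centred columns (adjusted p = 0.0337). For *CPR6* it was -1.34 ± 0.56 (adjusted p = 0.111), so the early rise and the absence of a late call were not shown to differ. *HSP82* differed by 0.49 ± 0.56 (interval -0.74 to 1.73) and *AHA1* by -0.20 ± 0.50 (interval -1.29 to 0.90).

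**Figure D4:**
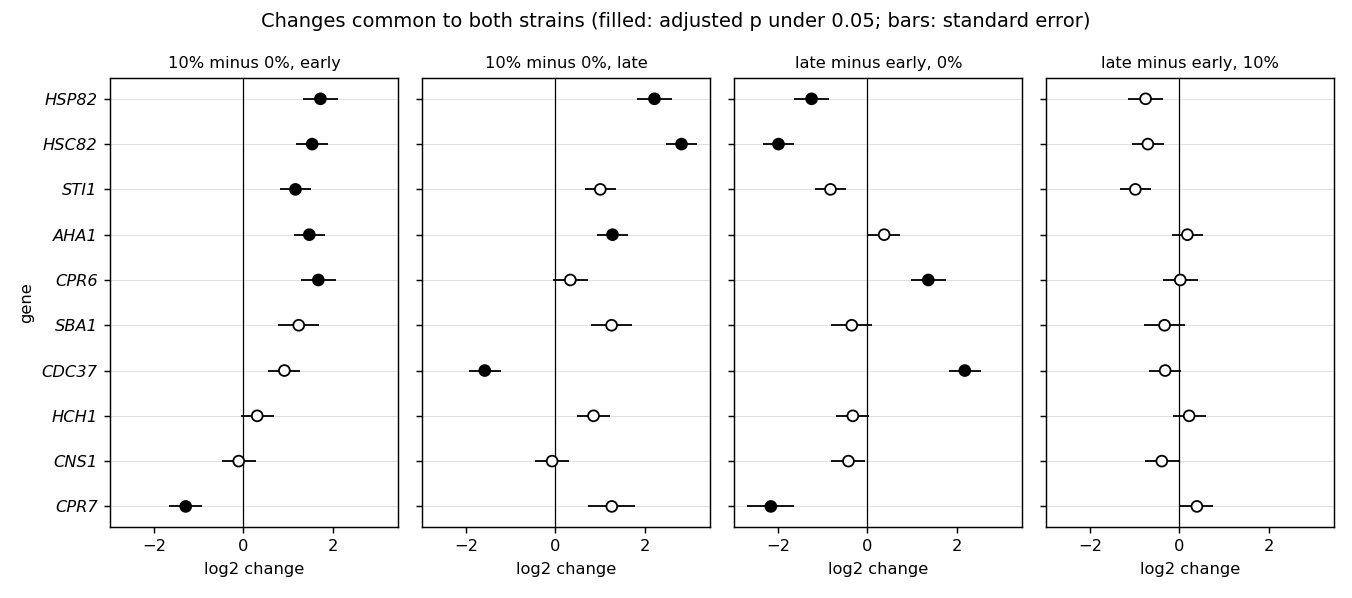
Change common to both strains in limma (x axis, log2) for each gene (y axis) in 4 comparisons, from left to right 10 minus 0% ethanol early and late, and late minus early at 0% and at 10% ethanol. Bars are standard errors and filled points have an adjusted p under 0.05, as for *HSC82* at 1.54, 2.83 and -1.99 in the first 3 panels, while no point in the right panel is filled.

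No gene of the 10 differed between the strains by the tests that 8 columns allow. CECT10094 minus Temohaya-MI26, taken over both ethanol levels, called 0 of 10 genes early (0.0506% of all ORFs were higher and 0% lower, limma) and 0 of 10 late (0% of ORFs), and 1 gene had an unadjusted p under 0.05 at each stage, *HCH1* early (0.81 ± 0.37, adjusted p = 0.999) and *CPR7* late (1.88 ± 0.52, from the 10% columns alone, adjusted p = 0.539). The strain gap in the ethanol change over both stages called 0 of the 9 genes with all values (0% of ORFs), and 0 had an unadjusted p under 0.05. For *HSP82* the gap was 0.28 ± 0.62 (interval -0.96 to 1.52) and for *HSC82* 0.30 ± 0.60 (interval -0.91 to 1.52), so neither a larger nor a smaller response in CECT10094 could be told from none. The gap was widest for *CPR6*, -0.90 ± 0.60, with the larger rise in Temohaya-MI26. A gap within a single stage cannot be tested with 1 column per condition.

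Over the 8 columns, which share the pool, *HSP82* and *HSC82* had a Pearson correlation of 0.965, given as a description. *STI1* correlated at 0.905 with *HSC82* and 0.862 with *HSP82*, and *SBA1* at 0.871 with *HSP82*. *CPR6* (0.331), *CNS1* (0.199) and *CDC37* (-0.524) were less like *HSP82* in this order. Of 5359 ORFs with all values, those most like *HSP82* were *DRE2*, a gene of iron-sulfur cluster assembly (0.979), YLR217W (0.978), *PTC3*, a phosphatase gene (0.969), *HSC82*, and *SAT4*, a kinase gene (0.962). Those most like *HSC82* were *APL2*, a clathrin adaptor gene (0.971), *HSP82*, *DRE2* (0.965), *SAT4* (0.961) and *RPT5*, a proteasome ATPase gene (0.956). YLR217W and *CPR6* (YLR216C) carry neighbouring systematic names on opposite strands, yet late without ethanol YLR217W stood at -1.88 and -1.79 and *CPR6* at 0.44 and -0.45. Late at 10% YLR217W stood at 0.45 and -0.62 and *CPR6* at 0.22 and 0.45. Whether these spots share sequence was not tested, so the values given for *CPR6* are those of its own spot only.

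Other genes around Hsp90 are counted here against the shares of all ORFs given above, 10.5% higher and 6.94% lower early, and 0.815% and 7.01% late, and in lists this short a count of 0, or of 1 gene lower, is near those shares. Of 8 further Hsp90-associated genes, 2 were higher early in limma, *SGT1* (1.33) and *PIH1* (1.26), adaptors of kinetochore and snoRNP assembly, and 1 was lower, *PPT1* (-1.72), the phosphatase that acts on Hsp90. Late, *SHE4*, a myosin chaperone gene, changed by -3.04 ± 0.45 (adjusted p = 0.00882), with ratios at 0% of 2.53 and 2.49 and at 10% of -1.43 and 0.38, and 0 of 8 were higher. Of 9 client genes of Hsp90 and Cdc37, among them kinases and the transcription factor gene *HAP1*, 0 were called at either stage, with 0 unadjusted p under 0.05 early and 1 late. Their median change was 0.08 early and -0.19 late. *HSF1* itself changed by 0.59 early (adjusted p = 0.322) and 0.23 late (adjusted p = 0.727), and 0 of 5 tested members of the other cyclophilin genes were called at either stage.

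Some Hsp70 partners of Hsp90 were also higher in ethanol, but early the median of those tested was not. Of 7 tested genes of the cytosolic Hsp70 system, *SSE2* (2.50), an Hsp110 exchange factor gene, and *SSA3* (1.62), a stress-induced Hsp70 gene, were higher early. The median change of the 7 genes was 0.002 early, against 0.17 for all ORFs, and 0.33 late, against -0.36. The Hsp70 genes *SSA1*, *SSA2* and *SSA4* had too few values for a test. Where measured, the difference of *SSA2* was 1.76 in CECT10094 early, and that of *SSA4* in Temohaya-MI26 was 0.89 early and 0.75 late. Over the 8 genes measured in each strain early, the median difference was 0.74 in CECT10094 (0.42 for all ORFs) and 0.07 in Temohaya-MI26 (-0.08). Late *YDJ1*, the main Hsp40 gene, was 2.82-fold higher (adjusted p = 0.0348), with ratios of -1.40 and -1.87 at 0% and 0.36 and -0.64 at 10%. Between stages the ethanol change of *SSE2* differed (-1.94 late minus early, adjusted p = 0.0344), and those of *SSA3* (-1.70, adjusted p = 0.0662) and *YDJ1* (1.50, adjusted p = 0.0658) did not pass. Without ethanol, *YDJ1* and *SSE1* were lower late than early (adjusted p = 0.00377 and 0.0155) and *SSE2* was higher (1.14, adjusted p = 0.0496). There 23.7% of all ORFs were higher, with a median change of 0.51. By its systematic name, YBR169C, *SSE2* belongs with *CNS1* to the 616 ORFs given a separate centre. Without ethanol their median stood 0.19 and 0.11 above that of the column early, and 0.46 and 0.69 late (CECT10094 and Temohaya-MI26). Whether *SSE2* changed beyond these ORFs in either comparison of stages was not tested.

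Of 10 other Hsf1 targets, 6 were higher early: *HSP26* (4.91), *HSP42* (3.73), *HSP104* (2.81), *UBI4* (2.00), *CUR1* (1.65) and *MDJ1* (1.22). Late 0 of 10 were called and 2 had an unadjusted p under 0.05. The ethanol change of 3 of the 10, *HSP26*, *HSP42* and *HSP104*, was lower late than early, where that of 14.6% of all ORFs was. Late minus early it was -4.81, -3.38 and -2.50 (limma adjusted p = 0.00133, 0.00333 and 0.0155), against a median of -0.58 for all ORFs. *HSP26* and *HSP42* were higher late than early without ethanol (2.30 and 1.62, adjusted p = 0.00341 and 0.0104), the opposite direction to *HSC82* and *HSP82*. Against the median change of all ORFs these rises were 1.79 and 1.11. *HSP26* (YBR072W) belongs, like *SSE2*, to the 616 ORFs given a separate centre, and its change beyond those ORFs was not tested.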

How the data were processed

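RNA of 8 conditions, 1 column each, was measured on 24 spotted cDNA slides. After global background correction (GenePix Pro 6.0) and ratio-based normalization (Acuity 4.0), the authors deposited log2 ratios of Cy5 (sample) to Cy3 (pool), each the median of 3 biological replicate slides, for spots with at least 2 replicates. A deposited table of log2 differences between ethanol levels holds the authors' own comparison and was not used. The values were not normalized further, 2 control entries were left out, and 5653 of 6152 ORFs matched the RefSeq yeast annotation by locus tag. PE35M was taken as CECT10094, as the study's methods explain. The hours of the late samples also come from the methods.

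The limits are the mean ± 1.96 standard deviations of all differences. The model in limma 3.58.1 (R 4.3.3) covered all columns and had stage by ethanol means and strain within stage, which leaves 2 residual degrees of freedom plus 9.17 from the prior (prior SD 0.377). The strain by ethanol gap came from a fit with 1 residual degree of freedom plus 45.9 from the prior (prior SD 0.430). Its standard errors and intervals therefore come almost wholly from all ORFs and hardly from the gene itself. The steps were tested on simulated data. The 10 genes are all named, and of 6 other lists (44 genes) those past an adjusted p of 0.05 for ethanol early or late, with a few exceptions chosen after their values were seen (*HAP1*, *SSE1*, *HSF1*). *SSA1*, *SSA2* and *SSA4* are named as not tested, with the measured differences of *SSA2* and *SSA4*. The members and lists were chosen with earlier results of these data known. Alternatives were other centres and limits, centred and quantile-normalized columns, a separate centre for chromosomes I, III and the right arm of II, ORFs with all values, a robust prior, the columns of a stage alone, an adjusted p under 0.10, and leaving out each strain. Arrays give no counts, so their number limits the precision.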

Additional observations from a re-analysis of the deposited data

Results flagged for a closer look

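The ethanol change of 2 genes differed between the stages by limma. That of *CDC37* was -2.50 (late minus early, log2), with both strains higher in ethanol early and lower late, and that of *CPR7* was 2.56, with the late change known in CECT10094 only.

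Other results stood out because the strains or the stages had opposite signs in ethanol, and these differences were not tested. *HCH1* early was higher in CECT10094 and lower in Temohaya-MI26, a gap of 0.88, and *CNS1* early likewise, a gap of 0.43. Late, *CNS1* again had opposite signs, with a gap of 1.04, and *CPR6* was lower in ethanol in CECT10094 and higher in Temohaya-MI26, a gap of -1.12. Within CECT10094 the difference of *CPR6* was -1.57 from early to late, and within Temohaya-MI26 that of *HCH1* was 0.80.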

How the results depend on the processing

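No paired analysis was possible because each condition has 1 sample and the labels give no replicate numbers to block on, although every fit takes ethanol differences within a strain. Promoter motifs and protein identity were not run, as no sequences were used here.

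The count past the upper limit moved as follows. With the median and scaled MAD it was 4 in Temohaya-MI26 early, and 1 gene, *CDC37*, passed the lower limit in Temohaya-MI26 late. At the central 99% it was 0 in Temohaya-MI26 early, 2 in CECT10094 late and 1 in Temohaya-MI26 late. At a fixed difference of 1 it was 5 in CECT10094 early and 6 in Temohaya-MI26 early, with 1 gene below in Temohaya-MI26 early, CECT10094 late and Temohaya-MI26 late. Quantile normalization gave 0 in Temohaya-MI26 early.

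In limma, quantile normalization left 3 genes higher early and 0 lower late. With a strain left out, 0 to 4 genes were higher and 0 to 0 lower early, and 1 to 3 were higher and 0 to 0 lower late. These fits compare 1 column per ethanol level and borrow the spread, and the early 0 for lower arises because *CPR7* could not be tested in them. With ORFs measured in all columns, which drops *CPR7*, 0 were lower early and 0 had a higher ethanol change late than early. That last count was 2 after centring, separate centring of the chromosomes, quantile normalization or at an adjusted p under 0.10, in each case by adding *HSC82*. At 0% ethanol, 1 gene was higher late under the same 3 normalizations, without *CPR6*, and 5 were lower with separate centring, which added *STI1* and *CNS1*.

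With a strain left out, *HCH1* early ranged from -0.13 to 0.75, *CNS1* early from -0.32 to 0.11, *CPR6* late from -0.23 to 0.90 and *CNS1* late from -0.59 to 0.45. *CNS1* late was 0.67 with separate centring, 0.26 centred and 0.20 under quantile normalization. In the same first 3 settings, the late minus early change was 0.29, 0.31 and 0.050 for *STI1* and 0.25, 0.27 and 0.41 for *AHA1*, and *AHA1* at 0% late minus early was -0.031, -0.058 and -0.056. Strain gaps turned for *CDC37* early (-0.011 and -0.019, both centrings), *CPR6* early (-0.087) and *HCH1* late (0.11), the latter pair under quantile normalization. The cause was not tested. Among changes of single genes, 392 other values kept direction and side, 11 gained and 21 lost the call.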
